A study of Mus musculus with 6 samples.

Results

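The genes described here encode the matrix metalloproteinases (Mmp), the ADAM proteases (Adam), the ADAMTS proteases (Adamts), the ADAMTS-like proteins (Adamtsl) and the tissue inhibitors of metalloproteinases (Timp). They were all rows of the deposited count table that were annotated as protein-coding and whose symbol was one of these family names followed by a number. This rule found 83 of the 54532 genes in the table: 22 Mmp, 4 Timp, 19 Adamts, 5 Adamtsl and 33 Adam genes. The rule used names and not expression values.

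RNA was sequenced from retina at postnatal day 17, all of it from mice described as wild-type and C57BL/6J. There were 3 libraries of normal mice and 3 of OIR mice, the abbreviation in common use for oxygen-induced retinopathy. In that model pups are held in high oxygen, which stops retinal vessel growth, and back in room air the retina is short of oxygen and abnormal vessels grow. Both groups had the same genotype, strain and age. The labels give neither the oxygen schedule nor the number of animals behind each library, and the p-values therefore reflect library-to-library spread alone, which may be technical.

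Metalloproteinases are zinc enzymes that cut proteins outside the cell or at its surface. Mmps degrade collagens and other matrix proteins, and the membrane-type Mmps are anchored to the cell surface. Most ADAMs are membrane proteins, and the active ones release the outer part of growth factors, receptors and adhesion molecules, a step called shedding. ADAMTS enzymes are secreted and cut proteoglycans, procollagens and von Willebrand factor. ADAMTS-like proteins have the same ancillary domains without a protease domain, and Timps bind the catalytic site of metalloproteinases and block it. A sprouting vessel has to open its basement membrane, and these enzymes and inhibitors are studied in retinal vessel growth for that reason.

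The 6 libraries held 15818168 to 17163513 counts each, and the 83 genes took 0.121 to 0.143% of them. Levels are CPM, the counts as a rate over 1e+06 counts of the library, scaled with TMM factors, which correct for differences in RNA composition. Of the whole table, 17108 genes had enough counts to be tested, and 19.8% of them had an adjusted p under 0.05 in the quasi-likelihood test of edgeR, 11.1% as higher and 8.73% as lower in OIR retina. Summed markers of rods, the main cell of this tissue, lay between 41806 and 45010 CPM in the normal and between 33653 and 37848 CPM in the OIR libraries. The labels do not give sex. A library was called male where its summed Y-linked counts were above its Xist count, and female otherwise. By this rule the normal group held 2 male libraries and 1 female library and the OIR group 1 male library and 2 female libraries. The rule has no class for a pool of both sexes. Counts of the lens crystallin gene Cryaa ran from 20 in Normal 1 to 50688 in OIR 3, with 759 to 3567 in the other 4 libraries. In whole tissue, a change in the number of cells of a type and a change of RNA per cell cannot be told apart.

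Of the 83 genes, 13 had no count in any library and 52 could be tested. In OIR retina 17 of the 52 rose and 4 fell (edgeR quasi-likelihood test, Benjamini-Hochberg adjustment over all genes tested). That is 40.4% of the tested members, beside 19.8% of all genes tested, and 14 of the 17 rises were at least 2-fold. None of the 4 falls reached 2-fold. The filter needs enough counts in 3 libraries. Over its minimum in fewer than 3 normal libraries were 6 tested genes, and in fewer than 3 OIR libraries 3 tested genes. Timp1, Mmp12, Adamts8 and Adamtsl3 were over it in all 3 OIR libraries but not in all normal ones, so they were tested because of their OIR level. Mmp23 was tested because of its normal level, with 3 normal and 0 OIR libraries over the minimum. The count of calls is therefore a description of the family and not support for it. The median log2 fold change of the 52 was 0.11, beside 0.01 over all genes tested. Groups did not overlap in 27 of the 52 tested members, beside 36.8% of all genes tested. The 21 genes that passed were all among these, which the test itself favours. Of the 4 falls, only that of Adam22 passed without Normal 3, OIR 1 or OIR 3, and 2 passed without OIR 2. With any one library left out, 13 to 17 members were called higher.

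**Figure D1:**
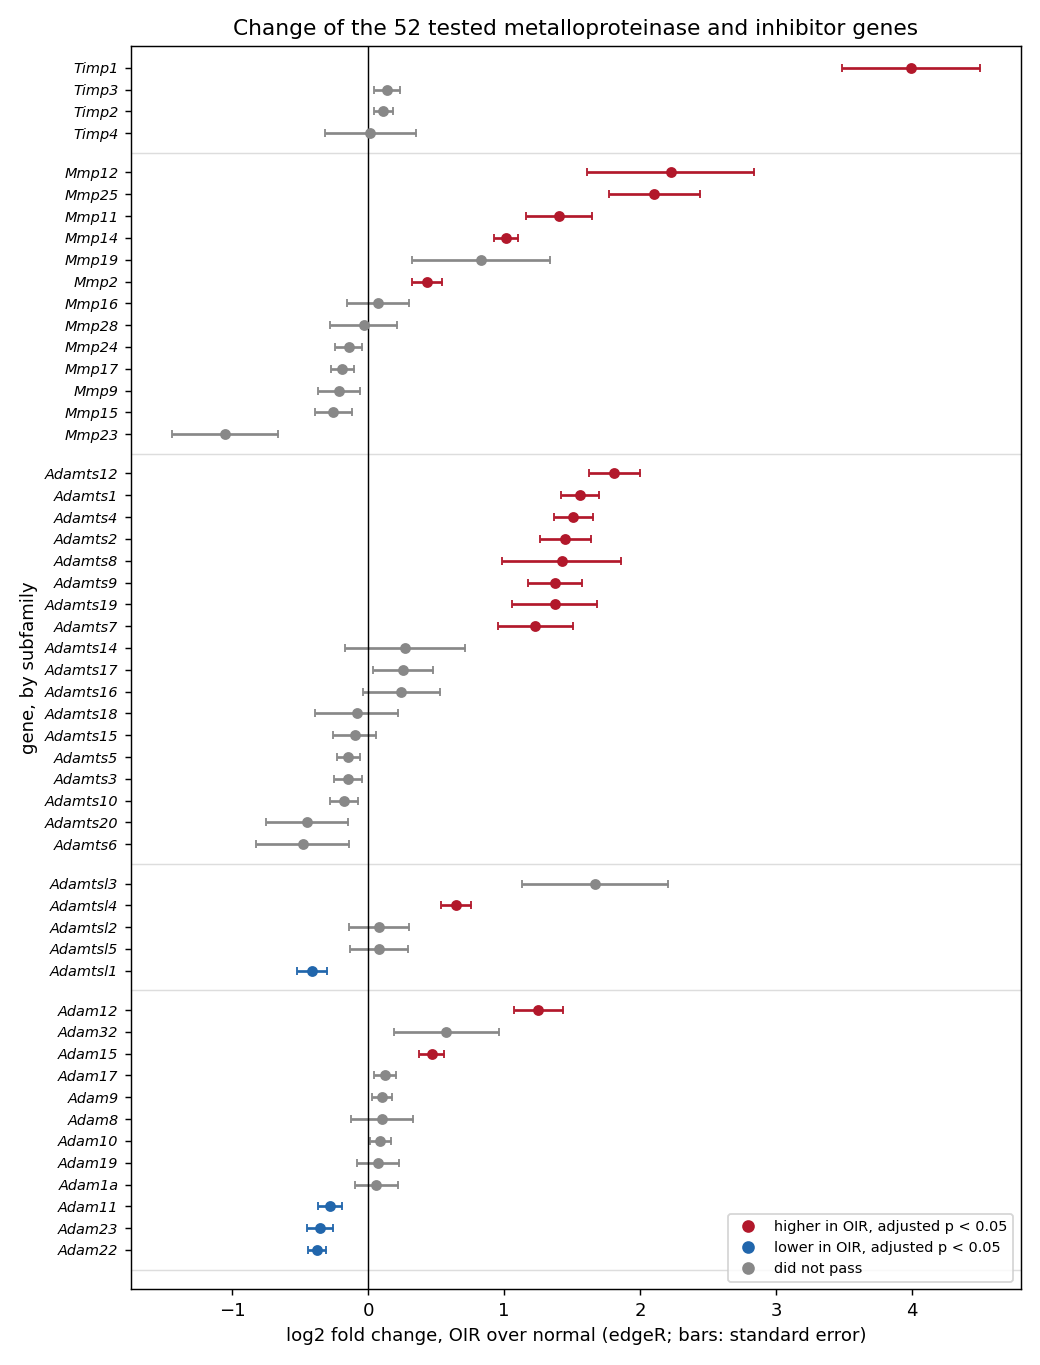
Log2 fold change (OIR over normal, x axis) of each of the 52 tested genes, grouped by subfamily on the y axis, with the standard error of the edgeR fit as bars and colour for the call. Timp1 stands at 3.99, 8 Adamts genes and 4 of the Mmp genes lie between 1.01 and 2.23, and the 4 falls lie between −0.41 and −0.28.

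The inhibitors split into a single gene with a steep rise and 3 genes with small differences. Timp1, the inducible inhibitor that blocks most secreted Mmps, is a short gene on the X chromosome (ENSMUSG00000001131, mm10 chromosome X, 20870166 to 20874735, plus strand). Its level was 0.419, 0.547 and 0.0643 CPM in the 3 normal libraries, the last from 1 count, and 6.90, 7.08 and 3.00 CPM in the 3 OIR libraries. Every OIR library was above every normal library, and OIR 3 was below the other 2 OIR libraries. The rise was 15.9-fold, with a log2 fold change of 3.99, a standard error of 0.508 and an edgeR adjusted p of 0.000355. The log2 fold change was 3.53 without Normal 3 and 4.47 without Normal 2.

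Timp2 and Timp3 were far more abundant than Timp1 and did not pass. Timp2, which inhibits Mmps and also takes part in the activation of Mmp2 at the cell surface, had 175, 152 and 162 CPM in normal and 174, 172 and 183 CPM in OIR retina. The groups overlapped, with a log2 fold change of 0.11 and an adjusted p of 0.313 in the edgeR test. Timp3, an inhibitor bound to the matrix that is mutated in Sorsby fundus dystrophy, had 91.8, 71.3 and 85.7 CPM in normal and 89.6, 86.7 and 97.7 CPM in OIR retina (log2 fold change 0.14, edgeR adjusted p of 0.368). Timp3 is strongly expressed by retinal pigment epithelium, and of 6 markers of that layer 4 fell (beside 8.73% of all genes tested) and none was at 0. Their summed level was 138 to 249 CPM in normal and 86.1 to 101 CPM in OIR libraries, and their part in the Timp3 values was not tested. Timp4 was low, with means of 1.07 ± 0.133 and 1.08 ± 0.243 CPM (SD, n = 3 per group) and a log2 fold change of 0.02 that changed sign in 5 of the alternatives run.

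Scaled by length, the inhibitors had the same order of means in both groups, with Timp1 between Timp3 and Timp4. As CPM per kilobase of the gene model in the table, normal retina had 41.9 ± 2.91 of Timp2, 10.2 ± 1.29 of Timp3, 0.387 ± 0.282 of Timp1 and 0.181 ± 0.0226 of Timp4 (SD, n = 3). The last 2 did not differ beyond their spread. In OIR retina Timp2 stood at 45.2 ± 1.58, Timp3 at 11.2 ± 0.699, Timp1 at 6.37 ± 2.60 and Timp4 at 0.183 ± 0.0412. Timp1 thus made up 0.745% ± 0.569 of the length-scaled Timp mRNA in normal retina and 10.1% ± 4.09 in OIR retina (SD, n = 3).

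3 of the Timp genes lie inside synapsin genes, on the opposite strand, and these libraries do not mark the strand in the standard form of their kit. Timp1 lies within Syn1, and in the GENCODE vM21 annotation of mm10 the exons of the pair share no base. Syn1, which encodes a synaptic vesicle protein, fell 1.53-fold, from 232 ± 23.0 to 152 ± 13.8 CPM (SD, n = 3, edgeR adjusted p of 0.000897), so host and nested gene moved in opposite directions. Timp4 lies within Syn2, which fell 1.61-fold (edgeR adjusted p of 0.00167), and shares 90 exon bases with it. Timp3 lies within Syn3 and shares 1733 exon bases, or 21.3% of its exon length. Syn3 had 11.1 ± 1.47 CPM in normal and 8.83 ± 0.724 CPM in OIR retina. How reads over shared bases were counted is not stated, and the effect on the level of either gene was not tested.

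**Figure D2:**
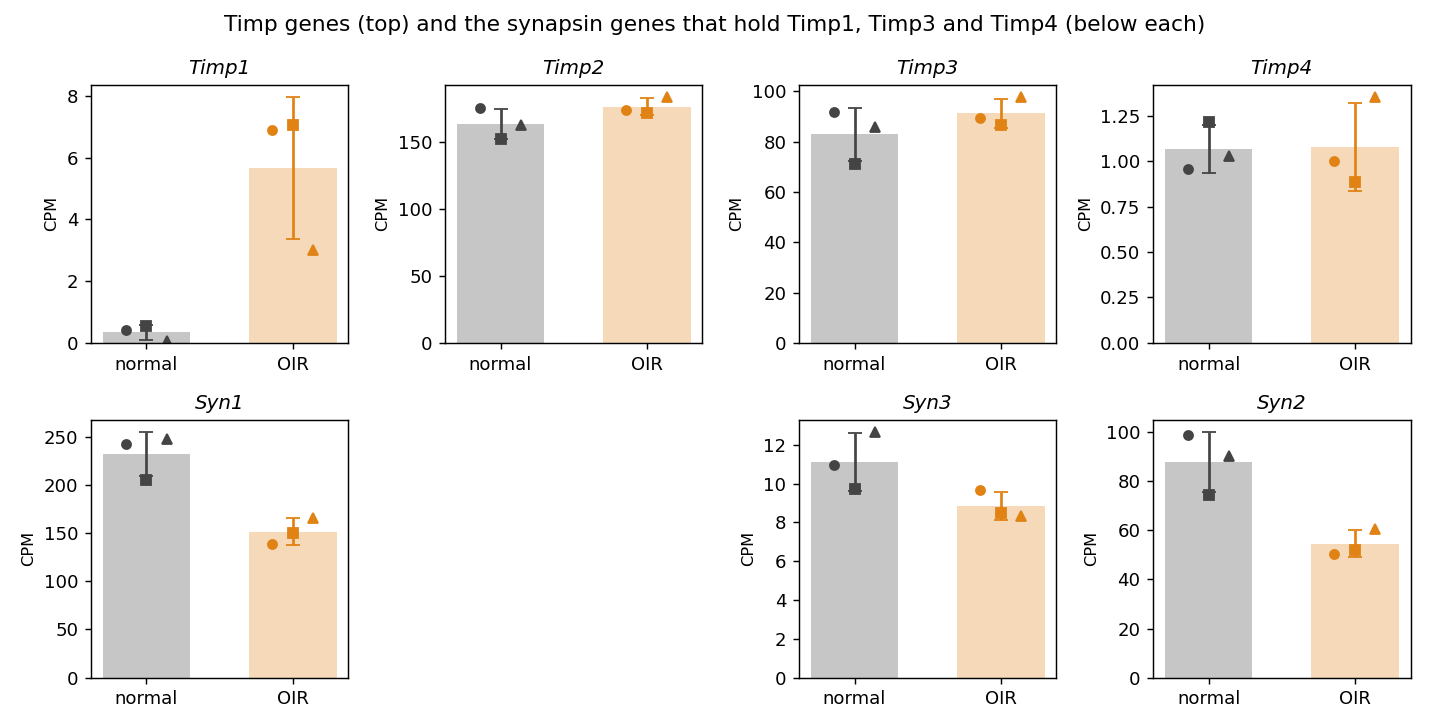
CPM (y axes, each from 0) of the 4 Timp genes in the upper row and of the synapsin genes that hold Timp1, Timp3 and Timp4 below them. Circles, squares and triangles are libraries 1, 2 and 3 of a group, bars are means and error bars the SD (n = 3): Timp1 goes from a mean of 0.344 to 5.66 CPM while Syn1 goes from 232 to 152 CPM.

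Of the 22 Mmp genes, 13 could be tested, and 5 (38.5%, beside 11.1% of all genes tested) rose: Mmp14, Mmp2, Mmp11, Mmp25 and Mmp12. None passed as lower in edgeR's quasi-likelihood test, where 2 had a negative change at an unadjusted p under 0.05, and none did in DESeq2 or limma-voom. Mmp14, or MT1-MMP, is the membrane-type enzyme that activates the Mmp2 proenzyme (ENSMUSG00000000957, chromosome 14, 54431612 to 54445364, plus strand). It had 31.3, 25.6 and 27.1 CPM in normal and 56.9, 56.6 and 56.0 CPM in OIR retina. The OIR libraries lay close together and above all normal libraries, with a 2.02-fold rise (log2 fold change 1.01, standard error 0.087, edgeR adjusted p of 2.59e-05). Mmp2, the gelatinase that cuts type IV collagen, had 24.9, 25.8 and 25.6 CPM in normal and 32.4, 40.3 and 30.5 CPM in OIR retina. Its 1.35-fold rise (edgeR adjusted p of 0.0197) no longer passed without Normal 3 (log2 fold change 0.44, adjusted p of 0.0693) or without OIR 2 (0.29, adjusted p of 0.0835).

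Mmp9, the other gelatinase, did not follow Mmp2. It had 42.6, 29.1 and 43.7 CPM in normal and 28.6, 38.5 and 32.4 CPM in OIR retina. The groups overlapped, and the log2 fold change was −0.21 with an adjusted p of 0.385 in the edgeR test. Without Normal 2, its lowest normal library, the log2 fold change was −0.38 and passed (adjusted p of 0.0448). Neutrophils carry Mmp8 and Mmp9, and of 8 neutrophil markers none had enough counts to be tested, Ly6g and Elane were at 0 in every library, and their sum was 0.122 to 0.659 CPM in normal and 0.588 to 0.885 CPM in OIR libraries. Mmp8 itself had 0 counts in the normal and 5 in the OIR libraries.

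The 3 steeper rises among the Mmps were of low-abundance genes. Mmp25, a membrane-type enzyme with a lipid anchor first described in leukocytes, had 0.779, 0.608 and 0.772 CPM in normal and 3.42, 2.12 and 3.82 CPM in OIR retina, a 4.30-fold rise (edgeR adjusted p of 0.00142). Mmp11, or stromelysin 3, had 2.46, 2.37 and 2.38 CPM in normal retina, where the libraries were almost equal, and 8.55, 5.13 and 5.41 CPM in OIR retina, a 2.64-fold rise (edgeR adjusted p of 0.00239). Its exons overlap Chchd10 on the other strand by 155 bases, and Chchd10 had a log2 fold change of −0.09. Mmp12, the macrophage elastase, had 7, 0 and 8 counts in the normal and 32, 23 and 20 counts in the OIR libraries. The OIR libraries were all higher, and the fitted rise was 4.68-fold (log2 fold change 2.23, standard error 0.615, edgeR adjusted p of 0.0276). It no longer passed without Normal 3 (2.76, adjusted p of 0.0586), OIR 1 (2.01, adjusted p of 0.114) or OIR 2 (2.27, adjusted p of 0.0715), and limma-voom gave 2.93. Of 9 microglia and macrophage markers 5 rose (beside 11.1% of all genes tested), and none was at 0. Their sum was 44.2 to 55.8 CPM in normal and 84.0 to 119 CPM in OIR libraries, and their part in the Mmp12 rise was not tested.

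The other membrane-type genes showed small differences. Mmp24, of neural tissue, had the highest length-scaled mean of the Mmps in normal retina, with 11.1 ± 1.47 CPM per kilobase there and 10.02 ± 0.601 in OIR retina (SD, n = 3), with a log2 fold change of −0.14 (edgeR adjusted p of 0.371). In normal retina Mmp9 followed with 10.9 ± 2.30, Mmp2 with 7.55 ± 0.142, Mmp15 with 6.49 ± 1.41, Mmp17 with 5.15 ± 0.279 and Mmp14 with 4.70 ± 0.494 CPM per kilobase. Mmp24 and Mmp9 did not differ beyond their spread. In OIR retina Mmp2 had the highest mean, 10.2 ± 1.54 CPM per kilobase, and Mmp14 at 9.48 ± 0.0751 and Mmp9 at 9.37 ± 1.41 came after Mmp24. The remaining tested Mmps, Mmp15, Mmp16, Mmp17, Mmp19, Mmp23 and Mmp28, had log2 fold changes of −1.05 to 0.83, and the lowest of these, Mmp23, had an adjusted p of 0.0864 in the edgeR test.

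The collagenases and most stromelysins were near the detection limit. A cluster of 9 Mmp genes on chromosome 9 (7272514 to 7699585) held 22 counts in all in the normal and 118 in the OIR libraries, 3 of the genes had none, and only Mmp12 could be tested. Mmp10, or stromelysin 2, had 0 counts in every normal library and 6, 12 and 2 counts in the OIR libraries. That is 6.37-fold higher when the normal group is set at 3 counts in all. The 95% Clopper-Pearson counting interval of the ratio starts at 4.72. With no filter on low counts Mmp10 passed as higher. Mmp13, a collagenase, had 3, 2 and 2 counts in the normal and 6, 6 and 2 counts in the OIR libraries. Mmp21 had 4 counts in the normal and 2 in the OIR libraries. Intervals cover counting error only, and fold values at a floor of 3 counts leave out even that.

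The ADAMTS proteases held the largest number of rises: 8 of the 18 tested genes rose (44.4%, beside 11.1% of all genes tested), each by more than 2-fold. None passed as lower, none was lower at an unadjusted p under 0.05, and none fell in DESeq2 or limma-voom. Adamts1, a secreted enzyme that cuts versican and aggrecan and binds VEGF (ENSMUSG00000022893, chromosome 16, 85793827 to 85803113, minus strand), had 27.8, 24.8 and 26.0 CPM in normal and 64.9, 96.8 and 69.5 CPM in OIR retina. The normal libraries were close together, the OIR libraries were all higher with OIR 2 on top, and the rise was 2.94-fold (log2 fold change 1.56, standard error 0.139, edgeR adjusted p of 3.33e-05). Its neighbour on the same chromosome, Adamts5 (85856173 to 85901828), an aggrecanase, differed little: 39.1, 46.7 and 44.2 CPM in normal and 40.2, 39.6 and 37.5 CPM in OIR retina (log2 fold change −0.15, edgeR adjusted p of 0.262).

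Of the 7 ADAMTS enzymes that cut proteoglycans, 4 rose (beside 11.1% of all genes tested): Adamts1, Adamts4, Adamts9 and Adamts8. Adamts4, another aggrecanase (ENSMUSG00000006403, chromosome 1, 171250421 to 171260637, plus strand), had 5.99, 5.47 and 5.34 CPM in normal and 14.97, 18.16 and 14.81 CPM in OIR retina. The groups were well apart, with a 2.85-fold rise (edgeR adjusted p of 4.43e-05). Adamts9, a versican-cutting enzyme with many thrombospondin repeats, had 5.75, 4.62 and 3.47 CPM in normal and 10.49, 13.98 and 11.52 CPM in OIR retina, a 2.59-fold rise (edgeR adjusted p of 0.000788). Adamts8 had 0.659, 1.03 and 0.322 CPM in normal and 1.94, 2.36 and 1.18 CPM in OIR retina, a 2.68-fold rise at an edgeR adjusted p of 0.043. The Adamts8 call was lost without Normal 1 (log2 fold change 1.41, adjusted p of 0.0859), Normal 3 (1.10, 0.160), OIR 1 (1.37, 0.130) or OIR 2 (1.19, 0.171). It was also lost in DESeq2 (adjusted p of 0.0507) and with sex as a covariate (0.0673), and it passed in 8 of 14 alternatives.

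The other proteoglycan-cutting members were Adamts15 and Adamts20. Adamts15 had 5.63 ± 0.260 and 5.26 ± 0.0777 CPM and Adamts20 had 1.501 ± 0.143 and 1.10 ± 0.135 CPM in normal and OIR retina (SD, n = 3). Both had OIR libraries below all normal libraries, and neither passed (edgeR adjusted p of 0.721 and 0.345).

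Adamts12 and Adamts7, a related pair that cuts cartilage oligomeric matrix protein, rose together. Adamts12 (ENSMUSG00000047497, chromosome 15, 11064790 to 11349231, plus strand) had 2.04, 2.01 and 1.99 CPM in normal retina, where the 3 libraries hardly differed, and 7.84, 6.49 and 6.93 CPM in OIR retina. Its 3.51-fold rise was the steepest among the ADAMTS genes (log2 fold change 1.81, standard error 0.190, edgeR adjusted p of 9.85e-05). Adamts7 had 1.62, 1.46 and 0.965 CPM in normal and 3.54, 2.89 and 3.11 CPM in OIR retina, a 2.35-fold rise (edgeR adjusted p of 0.0102).

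Among the procollagen N-peptidases, Adamts2 rose while Adamts3 and Adamts14 did not pass. These enzymes remove the N-terminal propeptide of fibrillar procollagens, and Adamts3 also takes part in the processing of VEGF-C. Adamts2 had 5.39, 3.65 and 3.41 CPM in normal and 11.96, 11.5 and 10.7 CPM in OIR retina, a 2.74-fold rise (edgeR adjusted p of 0.000387). Adamts3 was the most abundant ADAMTS gene in normal retina per length, with 48.2, 65.0 and 60.6 CPM there and 51.9, 53.0 and 51.9 CPM in OIR retina. Its log2 fold change was −0.15 (edgeR adjusted p of 0.369), and without Normal 1 it was −0.27 and passed (adjusted p of 0.022). Per kilobase, normal retina held 10.7 ± 1.60 CPM of Adamts3 and 4.94 ± 0.288 CPM of Adamts1 (SD, n = 3). In OIR retina the order was reversed, with 9.62 ± 0.112 CPM of Adamts3 and 14.5 ± 3.25 CPM of Adamts1 per kilobase.

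Adamts19 was the only member of the remaining ADAMTS genes that passed. It had 1.56, 2.92 and 1.41 CPM in normal and 6.72, 4.42 and 4.17 CPM in OIR retina, a 2.59-fold rise (edgeR adjusted p of 0.0112), which was not called without Normal 3 (log2 fold change 1.19, adjusted p of 0.0628) or OIR 1 (1.12, adjusted p of 0.0624). Adamts18, a gene of eye development, had 17.02, 15.4 and 14.4 CPM in normal and 11.1, 8.67 and 24.4 CPM in OIR retina. It is named here after its values were seen, because OIR 3, the library with the most lens crystallin counts, stood far above the other OIR libraries. Of 6 cornea and lens markers none passed, none was at 0 over all libraries, and their sum was 2.22 to 279 CPM in normal and 58.9 to 4217 CPM in OIR libraries; their part in the Adamts18 values was not tested. Without OIR 3, Adamts18 passed in the edgeR test, and with all libraries its log2 fold change was −0.08 (adjusted p of 0.884). Adamts13, the enzyme that cuts von Willebrand factor, had 3, 4 and 3 counts in the normal and 6, 8 and 3 counts in the OIR libraries, too few for a test.

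**Figure D3:**
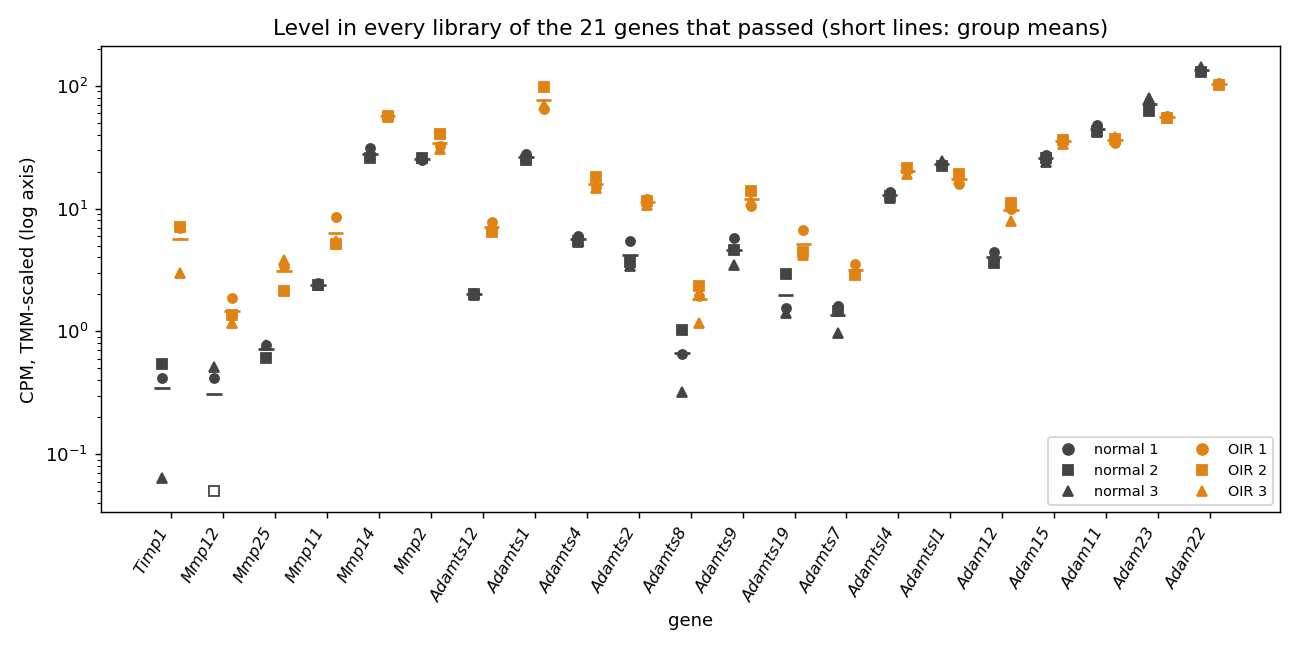
Level in CPM (log y axis) of the 21 genes that passed, in each library; circles, squares and triangles are libraries 1, 2 and 3, grey is normal, orange is OIR, and short lines are group means. The open square marks Mmp12 in Normal 2, which had 0 counts and is drawn at the foot of the axis; in each of the 21 genes the grey and orange points do not overlap.

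The ADAMTS-like genes moved in both directions. Adamtsl4, which binds fibrillin fibres, had 13.7, 12.7 and 12.3 CPM in normal and 20.4, 21.3 and 18.9 CPM in OIR retina, a 1.56-fold rise (edgeR adjusted p of 0.0025). Adamtsl1, a secreted matrix protein also called punctin, had 23.1, 22.1 and 24.2 CPM in normal and 15.8, 18.9 and 17.4 CPM in OIR retina, and in log2 units it fell by 0.41 (edgeR adjusted p of 0.0233). That fall did not pass without Normal 3 (adjusted p of 0.0877), OIR 1 (0.101) or OIR 3 (0.0605), nor with the replicate number as a block (0.0606). Adamtsl3 was low and scattered, with 23, 6 and 7 counts in the normal and 22, 64 and 34 counts in the OIR libraries. It was over the minimum of the filter in 1 normal and 3 OIR libraries, so it was tested because of its OIR level. Its groups overlapped and its adjusted p was 0.0509, just over the threshold, in the edgeR test; it passed in DESeq2. Adamtsl5 and Adamtsl2 had log2 fold changes of 0.08 each.

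Among the Adam genes, 12 of 33 could be tested, and the abundant sheddases changed little. Adam9 and Adam10 were the most abundant per length, at 30.1 ± 1.91 and 16.0 ± 0.669 CPM per kilobase in normal and 32.3 ± 1.46 and 17.02 ± 1.21 in OIR retina (SD, n = 3). Adam10, which cuts Notch receptors and the amyloid precursor protein, had 79.4, 74.9 and 81.3 CPM in normal and 87.8, 76.8 and 86.3 CPM in OIR retina. Its groups overlapped (log2 fold change 0.09, edgeR adjusted p of 0.477). Adam17, which releases TNF and ligands of the EGF receptor, had 29.0, 32.4 and 30.6 CPM in normal and 33.2, 33.3 and 33.7 CPM in OIR retina. The OIR libraries were all above the normal ones, yet the difference was small, with a log2 fold change of 0.12 and an adjusted p of 0.344. Adam9 had a log2 fold change of 0.10 (edgeR adjusted p of 0.37).

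Adam12 and Adam15 were the Adam genes that rose. Adam12, or meltrin alpha, a protease of mesenchymal and muscle cells (ENSMUSG00000054555, chromosome 7, 133883199 to 134232146, minus strand), had 4.43, 3.59 and 4.12 CPM in normal and 9.96, 11.1 and 7.87 CPM in OIR retina. All OIR libraries were higher, and the rise was 2.38-fold (log2 fold change 1.25, standard error 0.181, edgeR adjusted p of 0.000825). Adam15, which carries an integrin-binding RGD sequence in its human form and is found in endothelium, had 27.4, 25.7 and 23.8 CPM in normal and 36.8, 35.8 and 33.7 CPM in OIR retina. That is a 1.38-fold rise (edgeR adjusted p of 0.0045).

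The Adams that fell were Adam22, Adam23 and Adam11, neuronal proteins that lack the zinc-binding site of the active enzymes. Adam22 and Adam23 are synaptic receptors of the secreted protein LGI1. Adam22 (ENSMUSG00000040537, chromosome 5, 8072352 to 8368160, minus strand) had 132, 129 and 141 CPM in normal and 105, 102 and 103 CPM in OIR retina. The groups were clearly apart, and the gene fell by 0.37 on the log2 scale (standard error 0.067, edgeR adjusted p of 0.00301). Adam23 had 70.6, 61.7 and 79.9 CPM in normal and 56.7, 55.0 and 54.3 CPM in OIR retina and fell by 0.35 (edgeR adjusted p of 0.0247). Adam11 had 47.9, 43.1 and 41.6 CPM in normal and 33.8, 37.0 and 38.4 CPM in OIR retina and fell by 0.28 (edgeR adjusted p of 0.0415).

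These last falls were less stable than that of Adam22, which passed in each of the 14 alternatives run. The Adam11 fall passed in 4 of 14 and was lost without any one of the 6 libraries, with adjusted p from 0.0509 to 0.180. The Adam23 fall passed in 9 of 14; it was lost without Normal 3, OIR 1, OIR 2 or OIR 3 (adjusted p of 0.0999, 0.0612, 0.0756 and 0.0511) and with the sex of the library as a covariate (0.0746). Markers of some neuron types fell alongside, and of all genes tested 8.73% fell. All 5 bipolar markers and all 4 amacrine markers fell, with sums of 1550 to 1650 CPM in normal and 1085 to 1166 CPM in OIR libraries for bipolar cells and of 1013 to 1087 and 733 to 791 CPM for amacrine cells. Of 5 rod markers 3 fell, and of 4 cone markers 1 fell, with sums of 743 to 819 CPM in normal and 611 to 731 CPM in OIR libraries for cones. None of 5 ganglion cell markers passed in the edgeR test, and their sums were 679 to 1117 and 735 to 809 CPM. No marker of these 5 lists was at 0, and their part in the falls of the Adam genes was not tested.

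The germ cell Adams made up most of the silent genes. Of 21 Adam genes known mainly from testis or with no assigned group, 10 had no count in any library and 2, Adam1a and Adam32, were tested without passing. Untested Adam genes with at least 5 counts were Adam21, Adam4, Adam7, Adam5, Adam1b, Adam33, Adam2 and Adam28, with 6 to 60 counts each over the 6 libraries. Adam2, with 0 counts in the normal and 6 in the OIR libraries, was 1.91-fold higher with the normal group set at 3 counts. The 95% Clopper-Pearson counting interval of its ratio starts at 1.13. Adam28, with 7 normal counts and 1 OIR count, had a ratio of 0.137 with a 95% Clopper-Pearson counting interval of 0.00303 to 1.06.

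**Figure D4:**
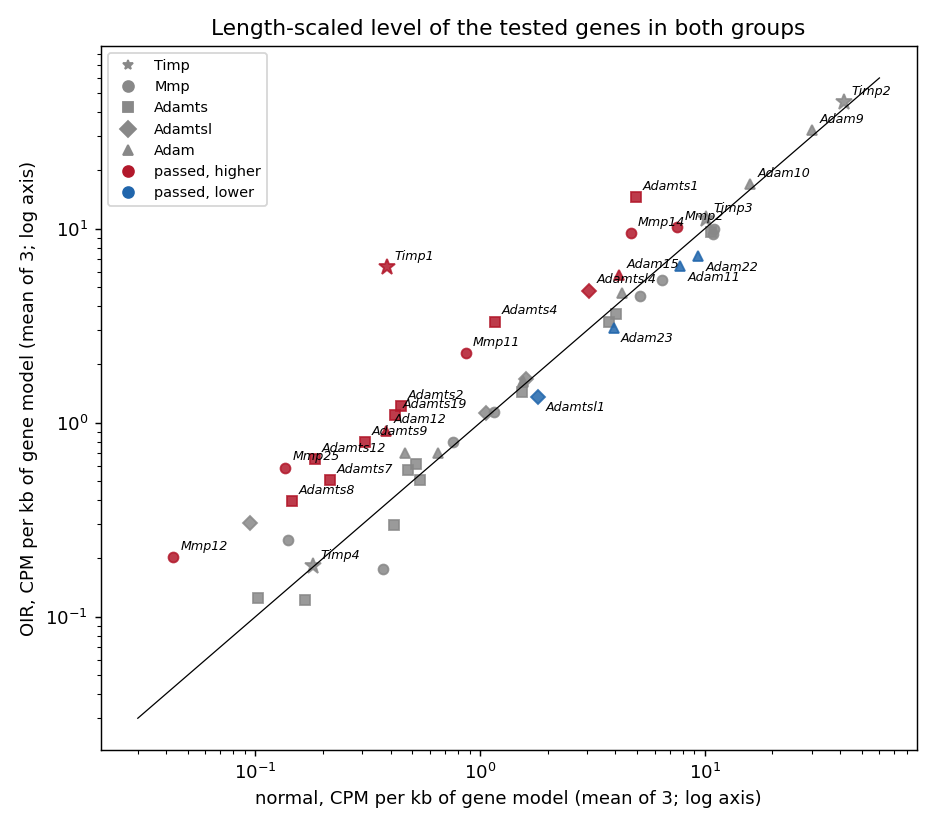
Mean level in CPM per kilobase of gene model in normal (x axis) and OIR retina (y axis), both log axes, for the 52 tested genes, with shape for the subfamily and colour for the call. Timp2 stands highest in both groups (41.9 and 45.2), Adamts1 moves from 4.94 to 14.5, and the genes that rose lie mostly at low to middle levels.

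Levels were also summed over each subfamily. The summed CPM was 229 ± 22.8 in normal and 255 ± 6.22 in OIR retina for Mmps, 247 ± 21.4 and 274 ± 9.82 for Timps and 202 ± 7.35 and 276 ± 15.2 for ADAMTS genes (SD, n = 3). Adams summed to 541 ± 14.5 and 522 ± 6.78 CPM and ADAMTS-like genes to 52.8 ± 5.38 and 56.9 ± 2.91 CPM. The ADAMTS sum was 195 to 209 CPM in the normal and 261 to 292 CPM in the OIR libraries, so these groups did not overlap. The Mmp sum reached 252 CPM in Normal 1 and started at 249 CPM in OIR 1, so those groups overlapped. Per kilobase the Adam sum was 80.9 ± 1.30 in normal and 82.8 ± 1.25 in OIR retina, the opposite direction to the sum of CPM. The Timp sum per kilobase was 48.7 to 56.8 in the normal and 62.6 to 63.5 in the OIR libraries, without overlap, whereas the Timp sums of CPM overlapped.

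The promoters of some members that rose are shown because these genes rose together, with that of Mmp10 as the untested neighbour of Mmp12 in its cluster. The sequences are the 250 bases upstream of the RefSeq start on GRCm38.p6, the assembly of mm10, written 5′ to 3′ along the gene's strand, with motif matches in capitals. The Timp1 window is at chrX:20869916-20870165 (plus), that of Adamts1 at chr16:85803114-85803363 (minus), that of Mmp14 at chr14:54431348-54431597 (plus), that of Mmp12 at chr9:7347124-7347373 (plus, the downstream of 2 listed starts) and that of Mmp10 at chr9:7502092-7502341 (plus).
Timp1: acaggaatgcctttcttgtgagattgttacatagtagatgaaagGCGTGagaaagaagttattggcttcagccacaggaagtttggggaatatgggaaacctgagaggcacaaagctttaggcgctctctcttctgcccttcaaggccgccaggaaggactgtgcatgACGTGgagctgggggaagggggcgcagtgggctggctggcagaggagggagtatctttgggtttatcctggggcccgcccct
Adamts1: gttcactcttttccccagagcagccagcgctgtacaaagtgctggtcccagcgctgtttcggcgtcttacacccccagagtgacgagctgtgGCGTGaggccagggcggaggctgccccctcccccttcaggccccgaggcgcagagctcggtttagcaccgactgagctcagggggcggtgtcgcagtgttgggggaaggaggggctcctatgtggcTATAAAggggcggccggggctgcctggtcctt
Mmp14: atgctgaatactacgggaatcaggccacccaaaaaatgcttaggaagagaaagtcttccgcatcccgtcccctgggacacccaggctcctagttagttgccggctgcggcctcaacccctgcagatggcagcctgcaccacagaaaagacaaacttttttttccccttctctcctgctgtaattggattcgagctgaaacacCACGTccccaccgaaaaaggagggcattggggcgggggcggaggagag
Mmp12: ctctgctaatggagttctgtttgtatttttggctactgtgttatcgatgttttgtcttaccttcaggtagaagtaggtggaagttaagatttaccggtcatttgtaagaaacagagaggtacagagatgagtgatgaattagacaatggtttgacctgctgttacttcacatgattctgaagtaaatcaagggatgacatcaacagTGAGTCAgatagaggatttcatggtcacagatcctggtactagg
Mmp10: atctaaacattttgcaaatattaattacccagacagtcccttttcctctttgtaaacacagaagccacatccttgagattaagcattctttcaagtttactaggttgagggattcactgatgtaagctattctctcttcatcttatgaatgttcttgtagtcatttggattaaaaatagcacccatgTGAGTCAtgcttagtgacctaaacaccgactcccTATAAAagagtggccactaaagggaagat

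4 motifs were searched on both strands: the core of the hypoxia response element (ACGTG or GCGTG), the AP-1 site (TGANTCA), a STAT site (TTCNNNGAA) and a TATA box (TATAAA); none of the matches printed above overlap. Capitals mark 2 hypoxia cores in Timp1, from 206 to 202 and from 82 to 78 bases upstream of the start. Adamts1 has a hypoxia core from 158 to 154 and a TATA box from 32 to 27 bases upstream, and Mmp14 has a hypoxia core from 48 to 44 bases upstream, on the other strand. The Mmp12 and Mmp10 windows printed each hold an AP-1 site of the letters TGAGTCA, from 44 to 38 and from 63 to 57 bases upstream, and Mmp10 also has a TATA box. The window of the other Mmp12 start (chr9:7344147-7344396), the start closer to that of the counted gene model, held no match to any of the 4 motifs, and the window printed was chosen for its match. RefSeq promoters were found for 52 of the 83 members. A hypoxia core stood in 8 of 11 genes that rose, in both of 2 genes that fell and in 12 of 20 tested genes that did not pass, beside 41.5% of the 27025 genes with a promoter. An AP-1 site stood in 1 of 11 genes that rose, none of 2 that fell and 1 of 20 that did not pass, beside 7.82% of all genes with a promoter. A STAT site stood in 0, 0 and 1 of these groups, beside 8.13%, and a TATA box in 1, 0 and 1, beside 14.3%. With the untested members included, 24 of the 52 had a hypoxia core, 11 an AP-1 site, 3 a STAT site and 12 a TATA box. A match is a string of letters and not evidence of binding.

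The wider machinery around these enzymes was read from lists of other genes. Among 22 tested activators and inhibitors other than Timps, 11 rose and 6 fell, beside 11.1% higher and 8.73% lower over all genes tested. The median log2 fold change of the 22 was 0.61. A2m, a plasma-type inhibitor that traps proteases, rose 7.43-fold, from 10.4 ± 1.14 to 77.2 ± 13.4 CPM (SD, n = 3, edgeR adjusted p of 6.28e-07). Plat, tissue plasminogen activator, rose 3.46-fold and the procollagen C-proteinase enhancer Pcolce 6.67-fold. Among the falls was Reck, a membrane-anchored inhibitor of Mmps, from 23.5 ± 0.725 to 15.6 ± 1.30 CPM (log2 fold change −0.60, edgeR adjusted p of 0.00328), named after its values were seen. The plasminogen gene Plg was at 0 in every library.

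Over all genes tested, 11.1% rose and 8.73% fell. Of 9 genes that encode partners of Adam10 and Adam17, 5 rose while the 2 proteases themselves did not pass. None fell in edgeR, DESeq2 or limma-voom or at an unadjusted p under 0.05 in edgeR, but 1 fell without Normal 2 and 1 with no filter on low counts. Frmd8, Rhbdf1 and Rhbdf2, which form the complex that carries Adam17 to the cell surface, rose 2.32-fold, 1.89-fold and 1.37-fold (edgeR adjusted p of 6.83e-05, 0.00132 and 0.00216). Tspan15, a tetraspanin that binds Adam10, rose 1.39-fold (edgeR adjusted p of 0.00436). Of 27 tested surface proteins that the 2 proteases shed, 12 rose and 5 fell, with a median log2 fold change of 0.22; without OIR 1 only 2 fell. The Notch receptor Notch3 rose 2.97-fold, the TNF receptor Tnfrsf1a 3.32-fold, the Notch ligand Dll4 3.04-fold and the endothelial cadherin Cdh5 2.70-fold, all with edgeR adjusted p between 1.83e-06 and 0.000117.

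Substrates of these enzymes were counted in the same way, beside the 11.1% of all genes tested that rose and the 8.73% that fell. Of 18 tested proteins that ADAMTS enzymes cut, 9 rose and 5 fell (median log2 fold change 0.80), with Fn1, the fibronectin gene, 4.41-fold, the proteoglycan gene Bgn 5.28-fold, Vwf 3.59-fold and the collagen gene Col3a1 3.86-fold higher. The falls numbered 3 without Normal 1 or OIR 3 and 2 without Normal 3 or OIR 2. Of 20 basement membrane and collagen substrates of Mmps, 11 rose and 1 fell (median 0.48), and that fall was not called without OIR 1. The type IV collagen genes Col4a1 and Col4a2 rose 6.16-fold and 4.63-fold, Lama4 4.01-fold and the perlecan gene Hspg2 4.16-fold. Several of these genes were known to change in these data when the lists were written, so the counts are no independent evidence of direction.

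Related metalloproteinases outside the 5 subfamilies were few, and the shares of all genes tested were again 11.1% higher and 8.73% lower. Of 8 astacin and pappalysin genes 4 could be tested. Bmp1, the procollagen C-proteinase, rose 3.30-fold, from 24.8 ± 1.79 to 82.0 ± 10.7 CPM (SD, n = 3, edgeR adjusted p of 2.7e-06). In log2 units its relative Tll1 fell by 0.60 and Pappa2 fell by 0.42 (adjusted p of 0.0196 and 0.0264), and Pappa had a log2 fold change of 0.06. The 2 falls became 1 without Normal 1 and 0 without Normal 3, OIR 1 or OIR 2. A list of 4 genes related to the ADAMTS-like group was also read, not all of them members of it. In log2 units Thsd7a fell by 0.38 and Thsd4 fell by 0.47 (edgeR adjusted p of 0.0149 and 0.0386). Thsd1 and Papln had log2 fold changes of 0.23 and −0.10. The 2 falls became 1 without Normal 1, OIR 1 or OIR 3 and 0 without Normal 3 or OIR 2. None of the 4 rose in edgeR, DESeq2 or limma-voom, or at an unadjusted p under 0.05 in edgeR.

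Most tested markers of vessel wall and stromal cells also rose, while glial markers moved in both directions. Over all genes tested, 11.1% rose and 8.73% fell. Of 10 endothelial markers 8 rose, with a sum of 480 to 543 CPM in normal and 655 to 710 CPM in OIR libraries, and of 8 pericyte and smooth muscle markers 7 rose, with sums of 259 to 297 and 663 to 753 CPM. Of 5 tested fibroblast and stromal markers 4 rose, with sums of 56.8 to 64.8 and 123 to 136 CPM. No marker of these 3 lists was at 0 over all libraries, and none fell in the edgeR test. These lists share genes with those above, so their counts are not independent. Notch3, Cdh5 and Kdr are also among the shed surface proteins, and Col1a1, Col1a2 and Dcn among the proteins that ADAMTS enzymes cut. Of 5 astrocyte markers 2 rose and 1 fell, and their sum, to which Gfap contributed an 11.8-fold rise, went from 49.3 to 55.4 CPM in normal to 257 to 345 CPM in OIR libraries. Of 8 Müller glia markers 1 rose and 5 fell, with sums of 4352 to 4936 and 2951 to 3686 CPM. No glial marker was at 0. The part of any of these lists in the rises of Timp1 and of the Mmp, ADAMTS, ADAMTS-like and Adam genes was not tested.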

How the data were processed

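Total RNA of mouse retina at postnatal day 17 was isolated with TRIzol and made into 3 normal and 3 OIR libraries with the NEBNext Ultra RNA kit, per the labels' protocols. The authors deposited a table of raw counts per gene for the 6 libraries. The submitters' processing notes name HISAT2 2.0.5 and fastp, featureCounts 1.5.0-p3, CASAVA 1.8 and also DESeq2 1.20.0, and the build mm10. Neither the strand setting nor the annotation release is stated in the labels or notes, so reads of overlapping genes on opposite strands cannot be told apart.

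Library columns whose names carry OIR were taken as OIR and the others as normal. Genes were kept by filterByExpr (minimum count 10, minimum total 15), which left 17108 genes, and the untested genes held 0.164% of the counts. Counts were scaled with TMM and tested with edgeR 4.0.16 (quasi-likelihood test, R 4.3.3) in one fit over all genes, with Benjamini-Hochberg adjustment over all of them and a threshold of 0.05. The common biological coefficient of variation was 0.131. Standard errors were derived from the fold change and the F statistic (log2 value over root F). Levels between genes were compared as CPM per 1000 bases of the length given in the table. Fold values for genes at 0 in a group used a floor of 3 counts over the group and are not lower bounds.

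Alternatives were DESeq2 1.42.0, limma-voom 3.58.1, other scalings, other filters, a replicate block, sex as a covariate, a threshold of 0.01 and each library left out. The procedure was tested on simulated data. Named with values were the 4 Timp genes, every member that passed, the 3 tested members of each subfamily with the highest CPM per kilobase, Mmp2, Mmp9, Mmp14, Adam10, Adam17, Adamts1, Adamts4 and Adamts13, untested members with at least 5 counts, and up to 4 genes of each list by adjusted p. Adamts15, Adamts18, Adamts20, Adamtsl3, Mmp23 and Reck were named after their values were seen. The members and lists were chosen with earlier results of these data known. Exon overlaps came from GENCODE vM21, which matched 83 of 83 members, and promoters from RefSeq GRCm38.p6. Some results that the rule for named genes would include are not reported here.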

Additional observations from a re-analysis of the deposited data

How the results depend on the processing

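The precision is limited by 3 libraries per group and, for genes such as Timp1 and Mmp12, by single-digit counts in normal libraries. Of 21 members that passed, 14 passed in each of the 14 alternatives run at the 0.05 threshold. That count leaves out the threshold of 0.01, at which 13 of the 21 were called. Adamts7, among the 14, was not called there. Of the log2 fold changes of named members in the alternatives, 441 of 448 kept their direction. The others were of Timp4, which stood at −0.00195 in limma-voom, −0.10 with sex as a covariate, −0.06 without Normal 1, −0.01 without Normal 3 and −0.19 without OIR 3 (range −0.19 to 0.13 with 1 library left out), and of Adamtsl5, at −0.088 without Normal 2 and −0.085 without OIR 2 (range −0.088 to 0.32). The cause was not tested.

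Adamtsl genes called higher numbered 2 in DESeq2, with library totals alone, with no filter, with a stricter filter and with sex as a covariate, the added gene being Adamtsl3. With sex as a covariate 2 members and 1 Adam gene were called lower. At an adjusted p under 0.01 the calls were 1116 genes higher and 647 lower, 1 member lower, 3 Mmp and 5 Adamts genes higher, 1 Adam gene lower and 0 Adamtsl genes lower. With 1 library left out, the ranges were 1237 to 2097 genes higher, 761 to 1734 genes lower, 13 to 17 members higher, 1 to 5 members lower, 3 to 5 Mmp higher and 0 to 2 lower, 6 to 8 Adamts higher and 0 to 1 lower, 1 to 2 Adamtsl higher and 0 to 1 lower, and 2 to 2 Adam higher and 1 to 2 lower.

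The replicate numbers are shared between the groups. Deviations from the group mean had correlations across genes of 0.0612, −0.164 and 0.0740 for same-numbered libraries. For the other pairs they were −0.184 to 0.0977. Deviations from a mean of 3 libraries are tied to one another, so these values cannot decide whether same-numbered libraries were paired. With the replicate block, 17 members were called higher and 2 lower, and 0 Adamtsl genes lower; Adam11 and Adamtsl1 were not called.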
